A study of Mus musculus with 12 samples.

Results

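Myeloid lineage transcription factors, proteins that steer blood progenitors towards granulocytes and monocytes, were followed in cultured mouse stem and progenitor cells with and without tumour necrosis factor (TNF). The 10 genes named were Spi1, Cebpa, Cebpb, Cebpd, Cebpe, Gfi1, Klf4, Id2, Runx1 and Myb. A probe set is a group of short probes on the array summarised as 1 value. A member was a named gene with a probe set to which the platform annotation gave its symbol and no other. That rule took 21 of 45037 probe sets that are not controls and covered 9 of the 10 genes. Cebpe had no probe set of its own under the rule and was not analysed here. Gfi1, Cebpa and Spi1 had 1 probe set each, Cebpb, Cebpd and Klf4 had 2, Id2 and Myb had 3 and Runx1 had 6.

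RNA came from KSL cells, marrow cells sorted for c-Kit and Sca-1 and against lineage markers, of mice aged 2 to 4 months. The 4 groups of 3 arrays were wild-type cells with TNF, untreated wild-type cells, Fancc-/- cells with TNF and untreated Fancc-/- cells. Fancc is a Fanconi anaemia gene. All cells were cultured in 10% fetal bovine serum with IL-6 at 20 ng/ml, IL-11 at 10 ng/ml, Flt3 ligand at 50 ng/ml and stem cell factor at 10 ng/ml, and treated cultures also received TNF at 10 ng/ml for 24 hours. Total RNA of 5 to 15 ng per sample was amplified and read on Affymetrix mouse arrays, and the values are log2 signals on which a difference of 1 is a doubling. Nothing in the labels ties a replicate to a mouse of its own, so the p-values describe only the spread between these arrays. Each array averages a mixed culture, in which fewer cells of a type and less RNA per cell cannot be told apart.

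PU.1, the protein made from Spi1, and Runx1 open chromatin at myeloid genes, and C/EBP alpha, the product of Cebpa, then carries progenitors to the granulocyte and monocyte stage. Gfi1 represses monocyte genes and is needed for neutrophils, Klf4 favours monocytes, and Id2 binds E proteins and keeps them off DNA. Myb keeps progenitors dividing and immature. C/EBP beta and C/EBP delta act when granulocyte production is stepped up by inflammation and induce acute phase genes, and C/EBP epsilon drives the last stages of neutrophil maturation.

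The labels were checked before the members were described. Fancc signal was 8.87, 9.12 and 8.95 on treated arrays labelled mutant, against 8.40, 8.65 and 8.22 on treated wild-type arrays, and 9.16, 8.73 and 9.15 on untreated arrays labelled mutant, against 8.28, 8.22 and 8.49 on untreated wild-type arrays. The signal was therefore not lower where the label says mutant. No source used here says which exons the Fancc probes read, so genotype is used below as labelled. The progenitor markers Kit, Cd34 and Flt3 lay between 9.95 and 10.77, 12.81 and 13.13, and 11.44 and 12.15. Levels in the stem and progenitor list were mixed. Mecom lay between 9.93 and 11.35, Hlf between 8.77 and 10.02 and Cd48 between 11.88 and 12.80. Procr lay between 6.74 and 9.89, Prom1 between 4.82 and 8.74, Meg3 between 5.36 and 6.94 and Slamf1 between 3.33 and 4.51. The T cell marker Cd3e stayed at or below 3.69 and the globin Hba-a1 at or below 3.45. In the same T and NK and erythroid lists, Nkg7 lay between 9.69 and 11.84 and Tfrc between 12.98 and 13.44. The rest of both lists stayed at or below 5.76. In the B lineage list, Ighm lay between 11.45 and 12.24 and Cd79b between 9.67 and 10.14. In the megakaryocyte list, Pf4 lay between 8.25 and 10.22 and Itga2b between 7.91 and 9.54. The rest of the B lineage and megakaryocyte lists stayed at or below 8.35. The low values of Cd3e and Hba-a1 therefore do not show that cells of other lineages were absent. Xist, expressed from the inactive X chromosome of females, was between 12.20 and 13.08 on all 6 treated arrays. It was low on 3 of the 6 untreated arrays, at 5.47, 5.06 and 12.53 in wild-type cells and 5.12, 12.73 and 12.04 on the arrays labelled mutant. The Y-linked Eif2s3y was low on treated wild-type replicate 3 (3.79) and untreated mutant replicate 2 (4.16) and between 10.46 and 11.88 on the others. The mix of sexes thus differed between arrays of 1 group and partly followed TNF treatment, and with both levels as covariates the averaged count of members called given below was 2 in place of 5. Calls lost when these levels were covariates are given beside each member.

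The members split in TNF-treated cells. Averaged over genotype, Gfi1, Klf4, Cebpd, Id2 and Cebpa fell, Cebpb and Runx1 had lower averages that did not pass the test, and Spi1 and Myb lay within 0.01 of no change on the log2 scale. The 5 called members of 9 compare with 12.1% of 18193 genes called in this comparison and 6.32% called lower (limma, Benjamini-Hochberg adjusted p under 0.05 over all genes). Over all genes 1057 were called higher and 1150 lower, a split of 852 and 1419 when each array was centred on its median. The median change of the 9 members was -0.63, beside -0.03 over all genes. The averaged count of 5 was 2 without untreated wild-type replicate 2 or 3, untreated mutant replicate 3 or treated wild-type replicate 2 or 3, and 3 without untreated mutant replicate 2. In wild-type cells alone 2 members passed, Gfi1 and Id2, where 5.02% of genes did and 2.33% were called lower. On the arrays labelled mutant only Gfi1 passed, where 4.31% of genes did and 1.86% were called lower. Member medians were -0.75 in wild-type cells and -0.62 on the arrays labelled mutant.

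**Figure D1:**
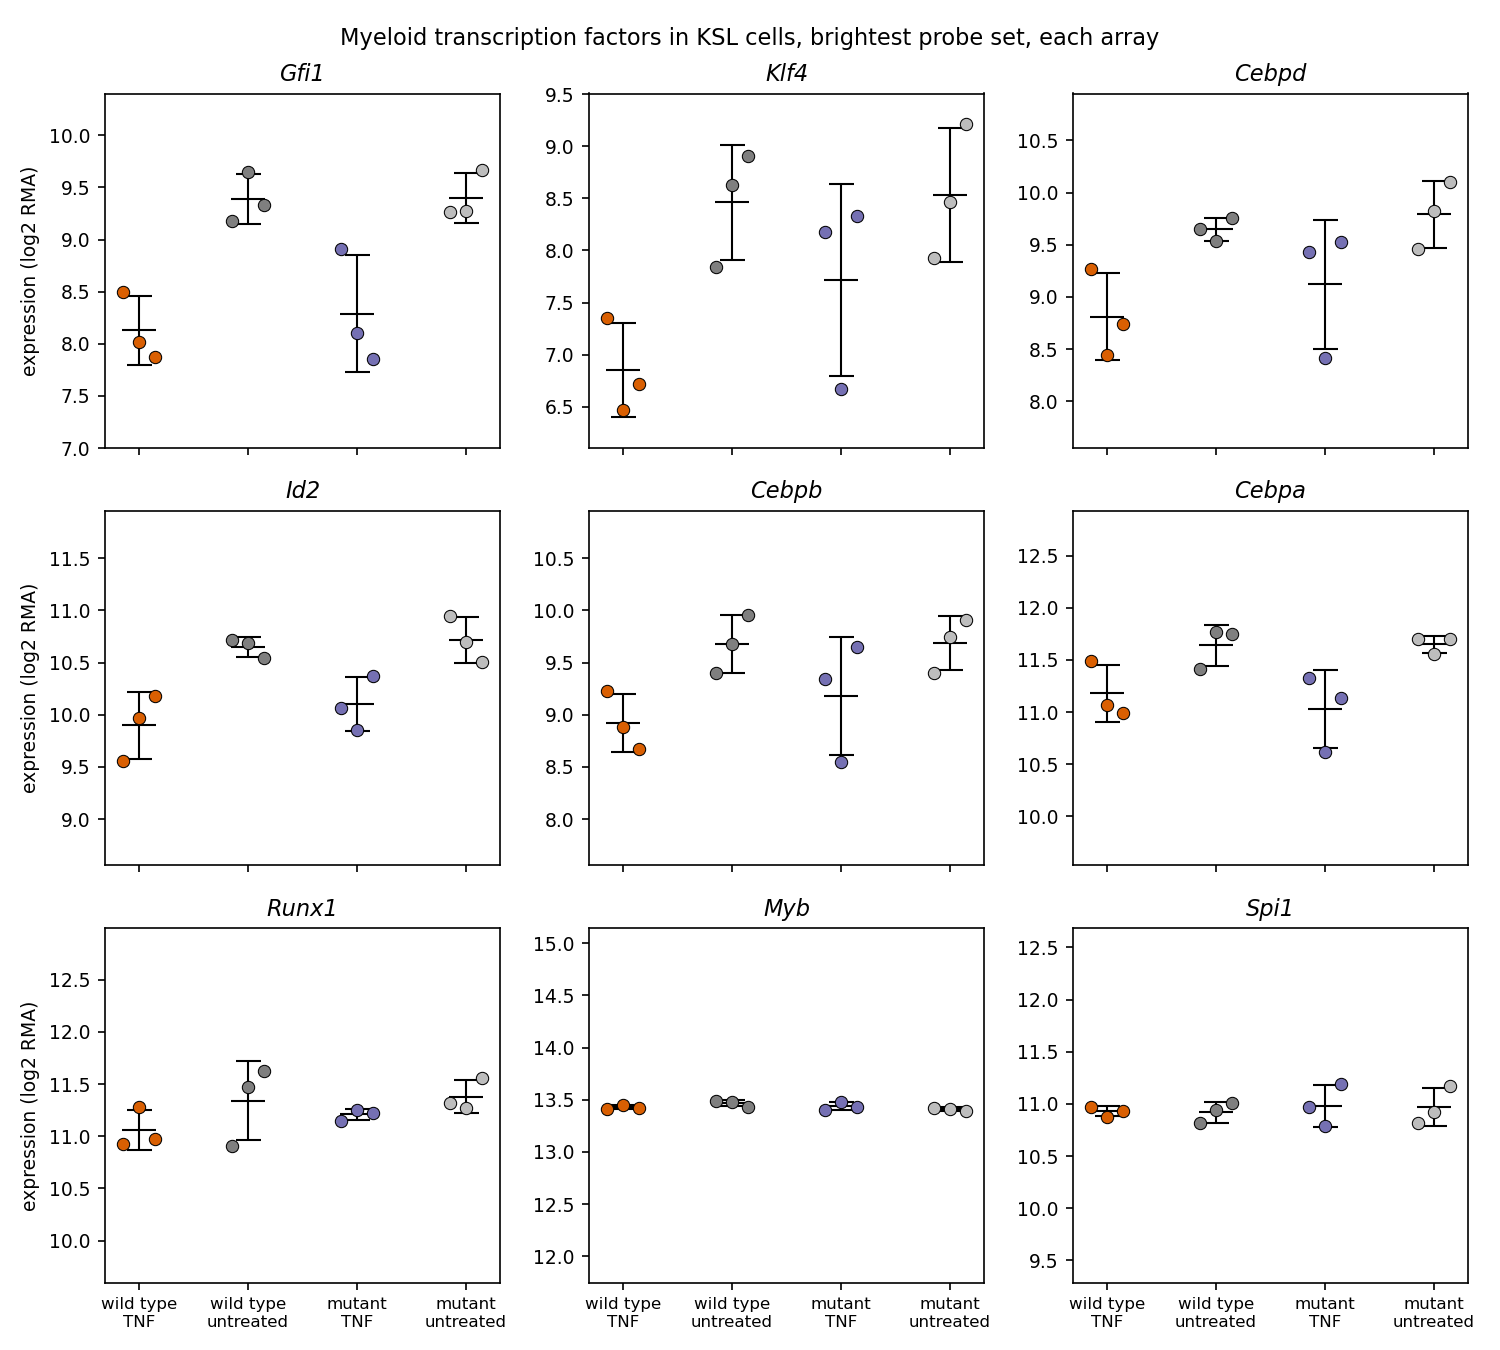
Log2 signal of the brightest probe set of each measured member (vertical axis) on every array, by group, with TNF-treated groups left of their untreated groups. Points are arrays, and horizontal marks with bars are the mean ± SD of 3 arrays; every panel spans the same log2 range. Gfi1 and Id2 show treated arrays wholly below untreated ones, whereas Spi1 and Myb lie at the same height in all 4 groups.

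3 promoter windows are printed because Gfi1 and Cebpa fell while most Runx1 probe sets did not pass. They are RefSeq sequence of build GRCm38.p6, 250 bases before to 50 after an annotated start, read 5′ to 3′ on the gene's strand: Gfi1 at chr5:107725756-107726055 (minus strand), Cebpa at chr7:35119043-35119342 (plus strand) and Runx1 at chr16:92826025-92826324 (minus strand). Capitals mark matches to the motifs searched.
Gfi1: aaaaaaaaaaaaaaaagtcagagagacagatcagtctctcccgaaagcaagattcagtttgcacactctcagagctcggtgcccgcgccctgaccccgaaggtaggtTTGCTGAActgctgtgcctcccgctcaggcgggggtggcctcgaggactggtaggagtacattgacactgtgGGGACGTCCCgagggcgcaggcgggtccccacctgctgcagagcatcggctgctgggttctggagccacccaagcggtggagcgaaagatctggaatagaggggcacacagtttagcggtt
Cebpa: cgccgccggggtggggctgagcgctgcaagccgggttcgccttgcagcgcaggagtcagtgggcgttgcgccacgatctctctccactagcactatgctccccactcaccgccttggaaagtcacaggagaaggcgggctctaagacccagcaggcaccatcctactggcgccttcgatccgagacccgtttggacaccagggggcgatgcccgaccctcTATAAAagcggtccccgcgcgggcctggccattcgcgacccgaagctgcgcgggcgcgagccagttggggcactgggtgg
Runx1: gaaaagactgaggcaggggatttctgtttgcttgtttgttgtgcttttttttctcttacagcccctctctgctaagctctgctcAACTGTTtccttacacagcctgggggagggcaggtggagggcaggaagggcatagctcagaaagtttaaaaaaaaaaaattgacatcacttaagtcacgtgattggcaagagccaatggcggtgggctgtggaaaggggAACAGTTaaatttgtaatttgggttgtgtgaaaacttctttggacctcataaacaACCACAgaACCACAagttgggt
The motifs, searched on both strands, were the NF-kB consensus, TTGCNNAA for C/EBP proteins, GAGGAAGT for PU.1, TGTGGT for RUNX proteins, AACNGTT for MYB and TATAAA for the TATA box. The Gfi1 window, 1 of 2 for that gene, held a palindromic NF-kB match whose first base is at -71 from the start. It also held a C/EBP match whose first base is at -143, while the other Gfi1 window held no match. NF-kB is the factor that TNF receptors activate. Whether either match is used in these cells was not tested. Cebpa held a TATA match whose first base is at -30. The Runx1 window, 1 of 2 for that gene, held 2 RUNX matches at bases 29 and 37 after the start and 2 MYB matches at -166 and -27, and none of the printed matches overlap. Of 32851 promoter windows of the same length, 8.46% held the NF-kB letters, 10.8% the C/EBP letters, 3.20% the PU.1 letters, 16.8% the RUNX letters, 4.45% the MYB letters and 13.6% the TATA letters. Among 9 windows of 7 members, only the printed Gfi1 window held an NF-kB or C/EBP match. None held the PU.1 letters, which says only that those letters are not in these windows. Spi1, Cebpd and Cebpe are not in the promoter table used here.

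Gfi1, a repressor needed for neutrophil formation, had the smallest adjusted p of the members, each read by its brightest probe set. Over all probe sets, Runx1 probe set 1427650_a_at had a smaller one averaged over genotype (limma adjusted p = 0.000732, against 0.00336 for Gfi1). Gfi1 read 8.50, 8.02 and 7.87 in TNF-treated wild-type cells, against 9.18, 9.65 and 9.33 in untreated wild-type cells. Treated arrays labelled mutant read 8.91, 8.10 and 7.85, against 9.26, 9.27 and 9.67 on untreated arrays labelled mutant. All 6 treated arrays were below all 6 untreated ones, the highest treated array being mutant replicate 1. Gfi1 fell by 1.26 in wild-type cells (SE 0.26, limma adjusted p = 0.0207), by 1.11 on the arrays labelled mutant (SE 0.26, adjusted p = 0.0396) and by 1.18 averaged over genotype (SE 0.19, adjusted p = 0.00195), a 2.27-fold difference. The averaged call held under all 21 alternatives, with adjusted p between 0.000358 and 0.0216. The wild-type call was lost with Xist and Eif2s3y as covariates (adjusted p = 0.110) and without untreated wild-type replicate 2 or 3 or treated wild-type replicate 2 or 3 (0.0597 to 0.0874). The call on the arrays labelled mutant was lost with the covariates (0.0904), when only those groups were fitted (0.0914), over all probe sets (0.0643), and without any untreated replicate labelled mutant, treated mutant replicate 2 or 3, untreated wild-type replicate 3 or treated wild-type replicate 2 or 3 (0.0503 to 0.146).

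Id2, an inhibitor of E proteins, was the other member without overlap. Its brightest probe set read 9.56, 9.97 and 10.18 in TNF-treated wild-type cells, against 10.72, 10.69 and 10.54 in untreated wild-type cells. On treated arrays labelled mutant it read 10.06, 9.85 and 10.37, against 10.95, 10.70 and 10.51 on untreated ones. The treated arrays were all lower, with mutant replicate 3 the highest of them. Id2 fell by 0.69 averaged over genotype (SE 0.12, limma adjusted p = 0.00450) and by 0.75 in wild-type cells (SE 0.18, adjusted p = 0.0343). On the arrays labelled mutant its difference was -0.63 (SE 0.18, adjusted p = 0.0807) and did not pass. The averaged call was lost only with the sex-linked covariates (0.0721). The wild-type call was less firm and was lost with the covariates (0.169), with array weights (0.0574), over all probe sets (0.0557), with only those groups (0.0786) and without any untreated wild-type replicate, treated wild-type replicate 1 or 2, untreated mutant replicate 2 or treated mutant replicate 1 (0.0520 to 0.0934).

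**Figure D2:**
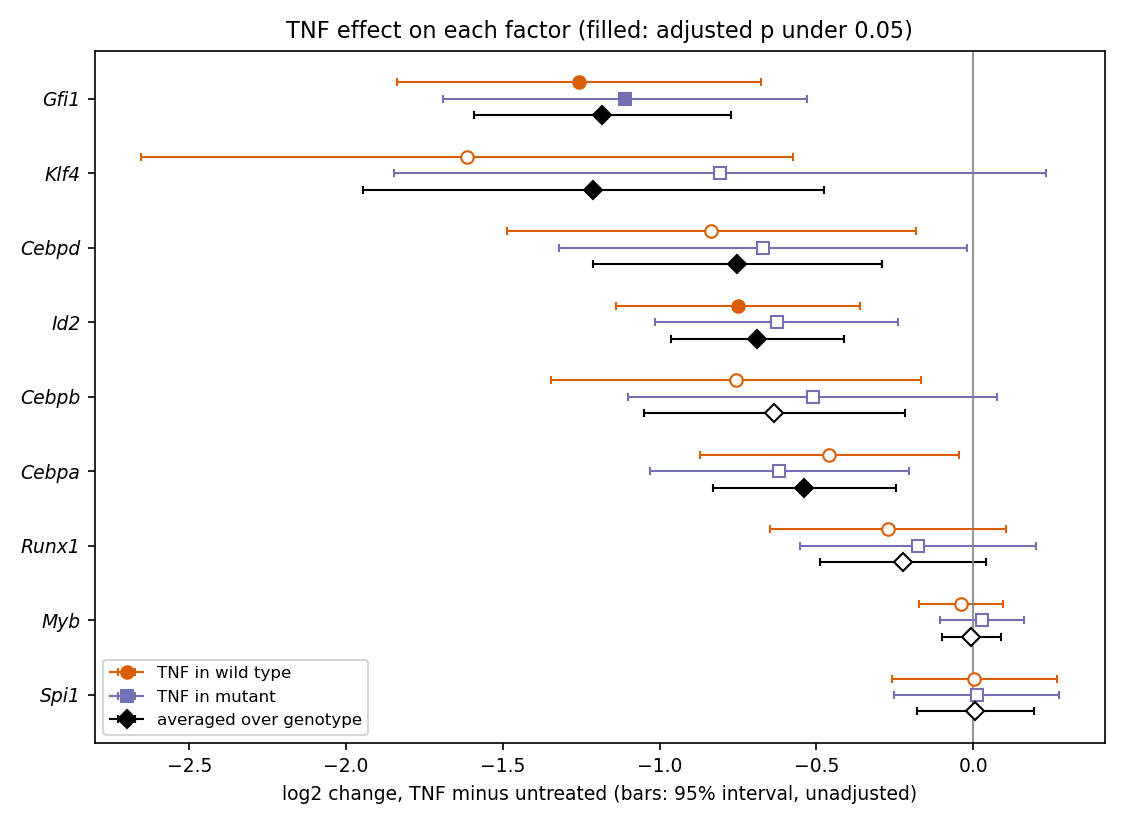
Log2 difference, TNF-treated minus untreated, for each measured member in wild-type cells, on the arrays labelled mutant and averaged over genotype, with 95% intervals (unadjusted); filled points passed the adjusted test. Gfi1, Klf4, Cebpd, Id2 and Cebpa have averaged intervals below 0 and filled points, Cebpb has such an interval with an open point, and Spi1 and Myb centre on 0.

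Klf4, a zinc finger factor of monocyte development, had the most uneven values. In TNF-treated wild-type cells it read 7.35, 6.47 and 6.72, against 7.84, 8.63 and 8.91 in untreated wild-type cells. On treated arrays labelled mutant it read 8.18, 6.67 and 8.33, against 7.93, 8.46 and 9.21 on untreated ones. Wild-type groups did not overlap, whereas on the arrays labelled mutant 2 treated arrays lay above the lowest untreated one. Klf4 fell by 1.21 averaged over genotype (SE 0.33, limma adjusted p = 0.0380). The difference was -1.62 in wild-type cells (SE 0.47, adjusted p = 0.0848) and -0.81 on the arrays labelled mutant (SE 0.47, adjusted p = 0.442). The averaged call was lost over all probe sets (0.0534) and without untreated replicate 2 or 3 of either genotype, treated wild-type replicate 2 or 3, or treated mutant replicate 2 (0.0572 to 0.0877). Its second probe set gave -0.98.

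Cebpa, required for granulocyte and monocyte progenitors, read 11.49, 11.07 and 10.99 in TNF-treated wild-type cells, against 11.41, 11.77 and 11.75 in untreated wild-type cells. On treated arrays labelled mutant it read 11.33, 10.62 and 11.14, against 11.70, 11.56 and 11.70 on untreated ones. The mutant groups were apart, while treated wild-type replicate 1 lay above untreated wild-type replicate 1. Cebpa fell by 0.54 averaged over genotype (SE 0.13, limma adjusted p = 0.0229), with -0.46 in wild-type cells (adjusted p = 0.224) and -0.62 on the arrays labelled mutant (adjusted p = 0.103). The averaged call was lost with the covariates (0.0870) and without untreated wild-type replicate 2 or 3, untreated mutant replicate 3 or treated wild-type replicate 2 or 3 (0.0516 to 0.0591).

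Cebpd, an inflammation-responsive C/EBP, read 9.27, 8.44 and 8.74 in TNF-treated wild-type cells, against 9.65, 9.54 and 9.76 in untreated wild-type cells. On treated arrays labelled mutant it read 9.43, 8.41 and 9.53, against 9.46, 9.82 and 10.10 on untreated ones. Treated replicate 3 labelled mutant exceeded the lowest untreated one, and the wild-type groups were apart. Cebpd fell by 0.75 averaged over genotype (SE 0.21, limma adjusted p = 0.0393), and its other probe set gave -0.78. The call was lost over all probe sets (0.0558), with the covariates (0.0901) and without any untreated wild-type replicate, untreated mutant replicate 2 or 3 or treated wild-type replicate 2 or 3 (0.0607 to 0.0933).

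Cebpb, which sustains granulocyte output under inflammatory demand, averaged 8.92 ± 0.28 in TNF-treated wild-type cells and 9.68 ± 0.28 in untreated wild-type cells, and 9.18 ± 0.57 on treated and 9.69 ± 0.26 on untreated arrays labelled mutant (SD, n = 3 each). Its averaged difference of -0.63 (SE 0.19) did not pass (limma adjusted p = 0.0528) but had an adjusted p between 0.0257 and 0.0478 under 8 of 21 alternatives. The dimmer probe set gave -0.32. Within groups, treated wild-type replicate 1 was the highest for 6 of 9 members and untreated wild-type replicate 1 the lowest for 6. Treated mutant replicate 2 was the lowest for 6 of 9, and untreated mutant replicate 3 the highest for 7.

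Runx1, the DNA-binding subunit of core-binding factor, showed a difference between its probe sets. The brightest averaged 11.06 ± 0.19 in TNF-treated wild-type cells and 11.34 ± 0.38 in untreated wild-type cells, with an averaged difference of -0.22 (SE 0.12) that did not pass (limma adjusted p = 0.275). It passed in 3 of 21 alternatives, with the mean of probe sets (0.0320), with array weights (0.0456) and without untreated wild-type replicate 1 (0.0316). Probe set 1427650_a_at read 7.98, 7.78 and 7.69 in TNF-treated wild-type cells, against 8.37, 8.62 and 8.50 in untreated ones, and 7.97, 7.87 and 8.13 on treated arrays labelled mutant, against 8.57, 8.52 and 8.74 on untreated ones. Every treated array was below every untreated one for that probe set. It fell by 0.65 averaged over genotype (SE 0.08, adjusted p = 0.000732 over all probe sets), by 0.67 in wild-type cells (adjusted p = 0.0103) and by 0.62 on the arrays labelled mutant (adjusted p = 0.0177). The other 5 Runx1 probe sets differed by -0.33 to -0.21 and did not pass, and which transcripts each one reads was not determined.

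**Figure D3:**
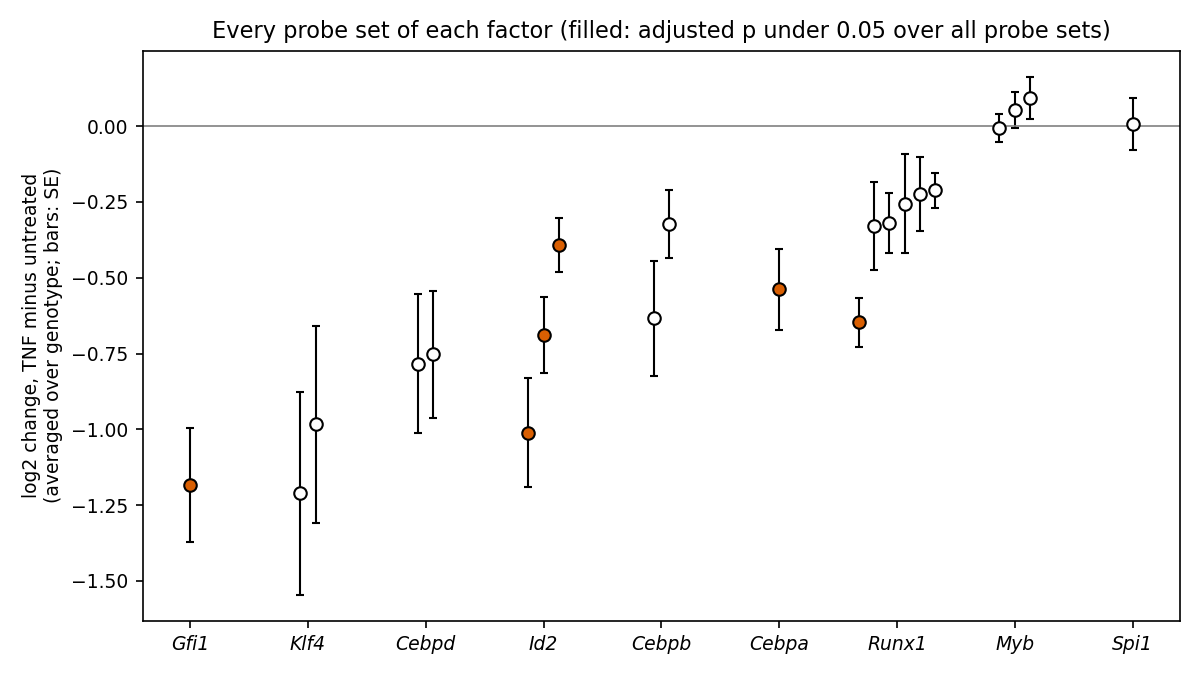
Averaged log2 difference, TNF-treated minus untreated, of each of the 21 probe sets of the members, with SE bars; filled points passed an adjusted p of 0.05 over all 45037 probe sets. The 6 filled points are Gfi1, Cebpa, all 3 of Id2 and 1 of the 6 of Runx1.

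Over all probe sets, 6 of 21 were called lower, where 7.41% of 45037 were called and 3.61% were called lower. In wild-type cells 2 of 21 were called, Gfi1 and 1427650_a_at, where 2.58% were, and on the arrays labelled mutant 1 of 21, 1427650_a_at, where 2.09% were. All 3 Id2 probe sets passed, at -1.01, -0.69 and -0.39, the last from a dim probe set with group means between 3.81 and 4.28. Klf4, Cebpd and Cebpb each had 2 probe sets below 0 and none passed at this level.

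No TNF difference of Spi1 or Myb passed the test. Spi1 read 10.97, 10.87 and 10.93 in TNF-treated wild-type cells, against 10.82, 10.94 and 11.01 in untreated wild-type cells, and 10.97, 10.79 and 11.19 on treated arrays labelled mutant, against 10.82, 10.92 and 11.17 on untreated ones. The averaged difference was 0.01 (95% interval -0.18 to 0.19, limma adjusted p = 0.969). Myb read 13.41, 13.45 and 13.42 in TNF-treated wild-type cells, against 13.49, 13.48 and 13.43 in untreated wild-type cells, and 13.40, 13.48 and 13.43 on treated arrays labelled mutant, against 13.42, 13.41 and 13.39 on untreated ones. Its averaged difference was -0.01 (95% interval -0.10 to 0.09, adjusted p = 0.953). Arrays of the groups overlapped for both averages. The Myb signal lay near the top of the range of the arrays, and its dimmer probe sets gave 0.05 and 0.09. The dimmest, 1422734_a_at, read 12.07, 12.12 and 12.07 on treated arrays labelled mutant, against 12.03, 11.88 and 11.74 on untreated ones. That difference of 0.20 (SE 0.10) did not pass (limma adjusted p = 0.420 over all probe sets), and in wild-type cells it was -0.02.

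Genotype was tested on the same members. No member passed in untreated cells, in treated cells or averaged over treatment, and the members' adjusted p was at least 0.790 (limma), where 0.0055%, 0.0055% and 0.022% of genes were called. At an unadjusted p under 0.05 there were 0 members in each, where 4.12%, 5.60% and 7.39% of genes lay. The TNF effect was not shown to differ by genotype for any member: 0 passed the interaction test (limma), where 0% of genes passed it, and 0 had an unadjusted p under 0.05, where 2.90% of genes did. Klf4 had the widest interaction estimate, 0.81 (95% interval -0.66 to 2.28), and treated arrays labelled mutant averaged 7.72 ± 0.92 for Klf4 against 6.85 ± 0.45 on treated wild-type arrays (SD, n = 3 each), a difference of 0.88 (95% interval -0.16 to 1.92). The other interaction estimates lay between -0.16 and 0.25.

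Counted without a model, treated and untreated wild-type arrays did not overlap, treated being lower, for 5 of 9 members, where 11.7% of genes did so. On the arrays labelled mutant it was 4 of 9, where 15.8% did. Over all 12 arrays it was 2 of 9, Gfi1 and Id2, where 4.02% did.

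Relatives and partners of the members, 17 measured genes, had 3 called higher and 4 lower with a median of 0.05. For this and the lists that follow, 12.1% of all genes were called and 6.32% called lower, and no list was tested as a set. The lower count was 2 with the sex-linked covariates and without untreated mutant replicate 2, treated wild-type replicate 2 or 3 or treated mutant replicate 2 or 3. Spic, a close relative of Spi1, read 7.42, 7.24 and 7.09 in TNF-treated wild-type cells, against 4.05, 4.29 and 4.14 in untreated wild-type cells, and rose by 3.18 averaged over genotype (SE 0.29, limma adjusted p = 5.19e-05). Treated and untreated arrays were far apart for Spic. Spib, another Spi1 relative, rose by 1.90, while the Id2 relatives Id1 and Id3 fell by 1.63 and 0.74 and the zinc finger gene Klf13 fell by 0.61. The Id3 call was lost in 12 of 20 alternatives (adjusted p up to 0.0999). Among 29 other myeloid and progenitor factors, 5 were called higher and 2 lower with a median of 0.12; the higher count was 8 with the mean of probe sets, and the lower count was 1 with cyclic loess, trended moderation or the covariates and in all but 3 fits that left out 1 array (untreated replicate 1 of either genotype and treated wild-type replicate 2). Irf8, which directs monocyte and dendritic cell fate, read 9.42, 9.58 and 9.67 in TNF-treated wild-type cells, against 11.10, 11.45 and 11.46 in untreated wild-type cells. It fell by 1.57 averaged over genotype (SE 0.16, adjusted p = 0.000101). Irf4, Egr2, Bhlhe40 and Egr1 rose by 2.05, 1.99, 1.18 and 1.14, with 1.00 for Irf4 under the mean of probe sets and no call for Egr2 with the covariates (adjusted p = 0.0933). Of 13 cofactors and corepressors, 3 rose and none fell: Junb, an AP-1 subunit, by 0.63, the DNA methyltransferase gene Dnmt3a by 0.32 and the histone demethylase gene Kdm1a, whose product works with Gfi1, by 0.21. The Kdm1a call was lost in 15 of 20 alternatives, and the covariates left 1 call in this list.

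Granule genes, which several of the members drive, were mostly lower. Of 8 measured primary granule and early myeloid genes, 5 were called lower and 2 higher with a median of -0.87. The lower count was 2 with the covariates and 3 without untreated replicate 2 or 3 of either genotype or treated wild-type replicate 2 or 3. Elane, neutrophil elastase, read 9.94, 7.33 and 7.52 in TNF-treated wild-type cells, against 11.20, 12.12 and 12.20 in untreated wild-type cells, and fell by 3.54 averaged over genotype (SE 0.55, limma adjusted p = 0.00178). Prtn3 fell by 1.21 and Ms4a3 by 1.00, while Cd33 rose by 1.31 and Igsf6 by 1.01. The Ms4a3 call was lost in 8 of 20 alternatives, and the Igsf6 call in 9, which are the covariates and each fit without untreated wild-type replicate 1 or 2, untreated mutant replicate 1 or 2, treated wild-type replicate 1 or 3 or treated mutant replicate 1 or 3. Of 13 secondary granule and late neutrophil genes, 9 were called lower and 1 higher with a median of -2.27. The collagenase gene Mmp8 fell by 4.92 (SE 0.33, adjusted p = 6.62e-06), Chil3 fell by 4.15 and S100a9 fell by 2.71. S100a9 read 5.47, 10.21 and 11.08 in TNF-treated wild-type cells, against 12.63, 13.08 and 12.86 in untreated wild-type cells. Without treated wild-type replicate 1 its change was -1.85, and its call was lost in 11 of 20 alternatives (adjusted p up to 0.202). Ngp fell by 2.57 and the neutrophil chemokine receptor gene Cxcr2 fell by 2.53. Of 6 growth factor receptors under PU.1 and C/EBP control, 2 fell, Il6ra by 0.66 and Csf2rb by 0.40, and the median was 0.00. With the mean of probe sets neither passed, and Csf2rb was also lost with the covariates and without untreated mutant replicate 3.

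Acute phase and inflammatory genes, listed as targets of C/EBP beta and delta, ran the other way from the granule genes. The activity of C/EBP beta and delta was not measured, and what raised these genes was not tested. Of 10 measured, 6 were called higher and none lower, with a median of 1.01. Saa3, an acute phase protein gene, read 13.09, 12.52 and 12.85 in TNF-treated wild-type cells, against 10.01, 10.64 and 10.79 in untreated wild-type cells, and rose by 2.34 averaged over genotype (SE 0.24, limma adjusted p = 0.000129). Cxcl2, Ptgs2, Hp and Il1b rose by 1.50, 1.37, 1.20 and 0.82. Cxcl2 was dim, averaging 3.18 in untreated wild-type cells and 3.03 on untreated arrays labelled mutant, against 4.48 and 4.73 with TNF. The low-value filter kept 5 of the 10 genes, all 5 called higher. The higher count was 3 with the covariates, the Hp call was lost in 7 of 20 alternatives, and Ptgs2 was 0.59 under the mean of probe sets. Cxcl2 and Il1b were lost in 1 of 19 alternatives, the covariates (limma adjusted p = 0.0969 and 0.209). Of 8 MYB target genes, 2 fell, the survival gene Bcl2 by 0.99 and Tmem97 by 0.33, and the median was -0.12. The Tmem97 call was lost in 14 of 20 alternatives, among them every fit that left out 1 array except without untreated wild-type replicate 1, while Bcl2 passed in all 20.

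**Figure D4:**
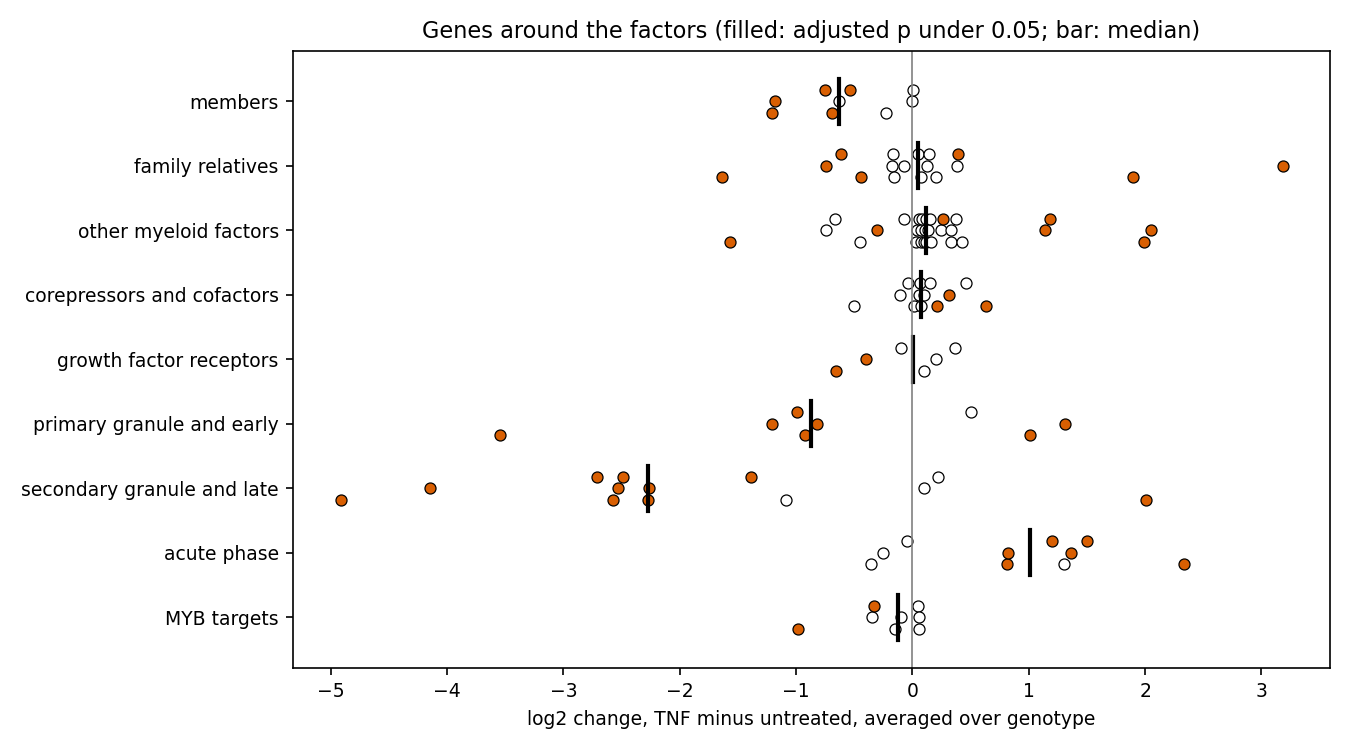
Averaged log2 difference, TNF-treated minus untreated, of the genes in each related list; filled points passed an adjusted p of 0.05 and the bar is the list's median. The secondary granule list has a median of -2.27, the acute phase list 1.01 and the members -0.63.

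Some marker genes of another cell type also read lower with TNF. The summed linear signal of 7 mast cell and basophil genes was 942 to 2175 in TNF-treated wild-type cells, against 3896 to 4860 in untreated wild-type cells, and 851 to 2820 on treated arrays labelled mutant, against 3092 to 4079 on untreated ones. In that list 2 of 7 genes were called, both lower: Mcpt8 fell by 1.82 and Hdc by 1.78. The rest did not pass, and the list's median was -0.55. On the arrays labelled mutant alone none of the 7 was called and the median was -0.09. Mcpt8 weighed most in the sum in untreated cells, as it reached 11.70 and no other gene of the list exceeded 9.73. The part of these genes in the members' falls was not tested. Of 6 T and NK lineage genes, only Nkg7 was called, and it fell by 1.62, while Cd3e stayed near the floor. Of the other lists, 1 of 6 erythroid, 2 of 6 megakaryocyte and 1 of 6 B lineage genes were called lower, where 6.32% of all genes were. These short lists were not tested as sets. Tfrc fell by 0.23, Gp1bb fell by 0.46, Gp9 fell by 0.41 and Cd79a fell by 0.40. All but Tfrc and Gp1bb were lost in 10 of 19 alternatives, and those 2 only with the covariates. None of 7 stromal and endothelial genes passed, Cxcl12 at -0.20 and Col1a1 at -0.39 having the smallest p. Of 7 stem and progenitor markers, Procr rose by 1.48 and Prom1 fell by 2.30.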

How the data were processed

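Expression was measured on 12 Affymetrix mouse arrays in 4 groups of 3, grouped by the sample titles. The deposited log2 values were made by the authors with RMA, per the submitters' processing notes, which name no version. RMA corrects background and equalises arrays, so a shift common to all genes could not be seen. The log base was read from the values, which ran between 2.14 and 14.94. No further normalization was applied.

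The platform annotation gave 1 symbol to 34945 probe sets, several to 932 and did not list 9160, and 64 controls were left out. A gene took its probe set with the highest mean, giving 18193 genes. limma 3.58.1 in R 4.3.3 fitted 1 mean per group over all arrays with empirical Bayes moderation, 2-sided, with Benjamini-Hochberg adjustment over all genes or, for single probe sets, over 45037 probe sets, and an adjusted p of 0.05 as threshold. The script was tested on simulated data. The number of arrays limits precision.

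Named genes were all members and, from each list, the called genes with the 5 largest changes for TNF averaged over genotype, or the 2 smallest p where none was called. Fancc, Kit, Cd34, Flt3, Cd3e, Hba-a1, Xist and Eif2s3y were named as checks of the labels, Kit, Cd34, Flt3, Cd3e and Hba-a1 outside that rule. Mecom, Hlf, Slamf1, Cd48, Meg3, Ighm, Cd79b, Pf4 and Itga2b were also named outside it, for their levels. For each member called, the 3 most alike and 2 most opposite genes by correlation were also taken. The members and lists were chosen with earlier results of these data known. Alternatives were the replicate block, a low-value filter, a mean over probe sets, all probe sets, array centring, cyclic loess, trended and robust variance, array weights, only the compared groups, sex-linked covariates, and leaving out each array. Same-numbered arrays of different groups deviated together little (median r 0.05 over 18 pairs, range -0.16 to 0.28). Arrays with other numbers had a median r of -0.02 over 36 pairs, range -0.33 to 0.18. Replicate numbers were therefore not taken as pairs, and a weak link between same-numbered arrays was not tested further.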

Additional observations from a re-analysis of the deposited data

How the results depend on the processing

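The number of members called depended on the fit. For TNF in wild-type cells it was 2, but 1 with the replicate number as a block, 1 over all probe sets, 1 with only the compared groups and 0 with Xist and Eif2s3y as covariates, and 0 to 4 when 1 array was left out. On the arrays labelled mutant it was 1, but 0 with the block, 0 over all probe sets, 0 with only the compared groups, 0 with the covariates, 2 with the mean of probe sets, 2 with array weights, and 0 to 2 when 1 array was left out. Averaged over genotype it was 5, but 3 over all probe sets, 2 with the covariates, 7 with the mean of probe sets or array weights, 6 with the low-value filter, array centring or trended moderation, and 2 to 6 when 1 array was left out. Genotype and interaction counts of members were 0 under all alternatives run. Over all genes, calls numbered 913 in wild-type cells but 410 with the covariates and 523 with only the compared groups, 784 on the arrays labelled mutant but 452 with the covariates, and 2207 on average but 1270 with the covariates and 3337 over all probe sets. Leaving out 1 array gave 474 to 957, 444 to 951 and 1598 to 2225 calls. With the replicate block, which the design does not call for, Gfi1 on the arrays labelled mutant had an adjusted p of 0.0558 and Id2 in wild-type cells 0.0601. No called direction reversed, while Spi1 and Myb, near 0, had no resolved direction. Over 20 alternatives, secondary granule genes had 6 to 10 called lower and acute phase genes 3 to 7 called higher. The cause of these differences was not tested. With 3 arrays a group, precision limits what differences by genotype could be seen.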

Other observations

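Factors of other blood lineages were also measured. In a list of 8 mainly erythroid, megakaryocyte and mast cell factors, 2 were called higher and 1 lower for TNF averaged over genotype. Of all genes 12.1% were called in that comparison. Bach2, which was in this list but is a repressor of myeloid genes in lymphoid progenitors, rose by 1.15. Mitf, a mast cell factor, rose by 0.61, while Klf1, the erythroid factor, fell by 0.65. Bach2 read 10.00, 10.55 and 10.50 in TNF-treated wild-type cells, against 9.15, 9.04 and 9.26 in untreated wild-type cells. Of 8 lymphoid factors, Ebf1, a B cell factor, rose by 1.17 and Notch1 fell by 0.54. The Mitf call was lost in 11 of 20 alternatives, the Notch1 call in 10 of 20 and the Ebf1 call in 9 of 19. Among fits that left out 1 array, Ebf1 passed only without untreated wild-type replicate 2 or 3, untreated mutant replicate 3, treated wild-type replicate 1 or treated mutant replicate 1. Notch1 passed only without untreated wild-type replicate 1, untreated mutant replicate 2, treated wild-type replicate 2 or treated mutant replicate 2.

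Genes whose values followed a called member over the 12 arrays are given as a description with Pearson's r, among 3415 genes that spanned more than 1 on the log2 scale. The 12 points share the treatment contrast. Gfi1 was most like Plppr3 (0.96), Rgcc (0.95) and Nkg7 (0.94), and most opposite to Cd72 (-0.97) and 2010315B03Rik (-0.96). Cebpa was most like Sema6b (0.97), Dio2 (0.97) and Mpo (0.96), and most opposite to Cacna2d4 (-0.97) and Il18rap (-0.95). Cebpd was most like Tcn2 (0.97), Gda (0.96) and Thbs1 (0.96), and most opposite to Gimap9 (-0.93) and Fam167a (-0.92). Klf4 was most like AB124611 (0.97), Dok3 (0.96) and Adgre5 (0.96), and most opposite to 1810073O08Rik (-0.96) and Mex3a (-0.94). Id2 was most like Wfdc17 (0.93), Milr1 (0.93) and Dse (0.92), and most opposite to Edaradd (-0.93) and Zfp467 (-0.93).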
